A study of Homo sapiens with 6 samples.

Results

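The splicing regulators of the SR and hnRNP families were followed by expression in the human colorectal cancer cell line HT-29 after siRNA knockdown (KD) of the HOX cluster antisense transcripts HOXA-AS3 or HOXB-AS3. The members were 35 genes listed by symbol, of 27434 gene rows in each file: 11 SR proteins (SRSF1 to SRSF11), 2 TRA2 proteins, 20 hnRNPs and the PTB proteins PTBP1 and PTBP3. The cells were transfected for 48 h with an siRNA pool directed at HOXA-AS3 (siHOXA-AS3), one directed at HOXB-AS3 (siHOXB-AS3) or a non-targeting control pool (siNT), at 10 nM per the labels and with DharmaFECT 4 in every group. There were 2 RNA-seq libraries of polyadenylated RNA in each group, and both KDs were compared with the same siNT libraries. The labels number the libraries and do not say that they came from separate cultures, so the p-values measure the spread between these libraries, which may be technical.

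SR proteins carry an RNA recognition motif and a domain rich in arginine and serine, bind exonic enhancers and recruit the spliceosome to nearby splice sites. hnRNPs coat nascent transcripts and often act against SR proteins at silencers in exons and introns. Both families are abundant nuclear proteins in dividing epithelial cells, and many of them hold their own level by including a poison exon that sends the mRNA to nonsense-mediated decay. A peptide encoded by HOXB-AS3 has been described as a binding partner of hnRNP A1 in colorectal cancer cells, which makes these families of interest in this KD. The study's paper cites a primate-specific protein encoded by HOXB-AS3, and holds a conserved protein product to be very unlikely. Only transcripts were measured here, not the peptide or hnRNP proteins.

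Of the 35 members, 29 had a row of their own in the files. The rows of SRSF2, HNRNPA1, HNRNPA3 and HNRNPU also held a small RNA or a pseudogene. The remaining 2 members shared a row with another protein-coding gene, HNRNPH2 with RPL36A and HNRNPUL2 with BSCL2, so their values cannot be given to 1 gene. Unless stated otherwise, counts and medians below are therefore over the other 33, and the 2 shared rows are described on their own. All 35 rows passed the filter on low counts.

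The libraries held 15998518 to 26263938 expected counts. Of these the members together took 0.905% and 0.881% for siNT, 0.779% and 0.914% for siHOXA-AS3, and 0.946% and 0.973% for siHOXB-AS3 (95% Wilson intervals at most 0.00916 percentage points wide, for counting error only). These shares include the rows shared with RPL36A and with BSCL2, so they are not shares of the splicing regulators alone. Of 10 colon epithelium markers, 9 were at 1 FPKM or above in every library and the intestinal transcription factor CDX2 was below it, and all 9 markers of blood, endothelial, stromal, liver and glial cells stayed at 0.1 FPKM or below. The level of the epithelial markers was not the same in the groups. Summed over the 10 it was 4674 to 5025 FPKM in siNT, 3964 to 5926 in siHOXA-AS3 and 4300 to 4349 in siHOXB-AS3. In 7 of the 9 expressed markers both siHOXB-AS3 values lay below both siNT values in FPKM, beside 30.9% of all genes on the log2 CPM scale. Among the 7 were CEACAM5 (95.8 and 92.8 FPKM in siNT, 29.7 and 28.1 in siHOXB-AS3) and EPCAM (289 and 278 FPKM, 159 and 153). KRT8 (373 and 472 FPKM in siNT, 469 and 468 in siHOXB-AS3) and KRT18 (2093 and 2273 FPKM, 2233 and 2428) overlapped siNT. The part of these markers in the results for HOXB-AS3 KD was not tested. In bulk RNA, fewer cells of a type and less RNA per cell cannot be told apart. The targets were read by expected counts: HOXA-AS3 had 38 and 18 in siNT against 12 and 12 in siHOXA-AS3 (log2 fold change -1.09, SE 0.40, adjusted p = 0.711), and HOXB-AS3 had 303 and 213 in siNT against 67 and 76 in siHOXB-AS3 (-1.96, SE 0.25, adjusted p = 0.0678). Both targets were lower in their own KD, and neither passed the threshold of 0.05 over all genes in edgeR's quasi-likelihood test with all 6 libraries. With only the groups compared the edgeR adjusted p was 7.34e-07 for HOXB-AS3 and 1.00 for HOXA-AS3. HOXA-AS3 and HOXB-AS3 lie antisense to HOX genes and the strand setting of the counting is not given in the sources used here.

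The siRNAs are shown because their seeds set which other transcripts a guide could pair with. Each sequence is the antisense strand of the designed siRNA, 5′ to 3′, written as the reverse complement of its sense strand, with the seed (bases 2 to 8) in capitals.
HOXA-AS3 siRNA 1: uUGUUCGCuauucugucuc
HOXA-AS3 siRNA 2: uUGUUCGGcccuuccauug
HOXA-AS3 siRNA 3: aGCUUCGCuguccuuuccu
HOXA-AS3 siRNA 4: uAACGAGUgcccugucuac
HOXB-AS3 siRNA 1: aCUUUGUCucccuuugucg
HOXB-AS3 siRNA 2: uUUCUUUCaugcccgacuc
HOXB-AS3 siRNA 3: uUUCCCUUcaccccuugac
No member transcript matched a guide over its full length. None of the 35 members had a 3′ UTR match to the seed of any of the 4 HOXA-AS3 siRNAs, whose sites occurred in 1.20% to 1.91% of the 11111 genes tested that had a 3′ UTR. The HOXB-AS3 seeds are more common: siRNA 1 had a site in the 3′ UTRs of 2 members (HNRNPA0 and HNRNPDL), siRNA 2 in 8 and siRNA 3 in 5, which is 5.71%, 22.9% and 14.3% of members beside 11.6%, 24.4% and 20.1% of those genes. Among the 33 members, the 12 with a site for any HOXB-AS3 siRNA had a median log2 fold change of 0.09 after HOXB-AS3 KD and the 21 without one a median of 0.04. A seed match is a description of the letters and not a site of action.

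All members were expressed in every library, over a wide range of levels per length (FPKM). HNRNPA1, the most abundant A/B type hnRNP and a promoter of exon skipping, lay between 526 and 830 FPKM. HNRNPK, which binds C-rich RNA, ranged from 181 to 223 FPKM. HNRNPL, which binds CA repeats, ranged from 121 to 231 FPKM. The next levels belonged to HNRNPC, which binds uridine tracts and keeps Alu sequences from being used as exons (119 to 153 FPKM), to the G-run binder HNRNPH1 (78.0 to 149 FPKM) and to the pyrimidine-tract repressor PTBP1 (96.5 to 144 FPKM). SRSF3, a small SR protein that also acts in mRNA export, was the highest SR gene at 99.9 to 128 FPKM. The other SR genes followed in siNT mean order as SRSF7, SRSF9, SRSF2, SRSF5, SRSF10, SRSF6, SRSF1, SRSF4, SRSF11 and SRSF8. SRSF8, a paralog of SRSF2 that arose by retroposition, was the lowest member at 8.71 to 12.7 FPKM, below HNRNPA3, HNRNPR and HNRNPA0, whose ranges overlapped one another.

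**Figure D1:**
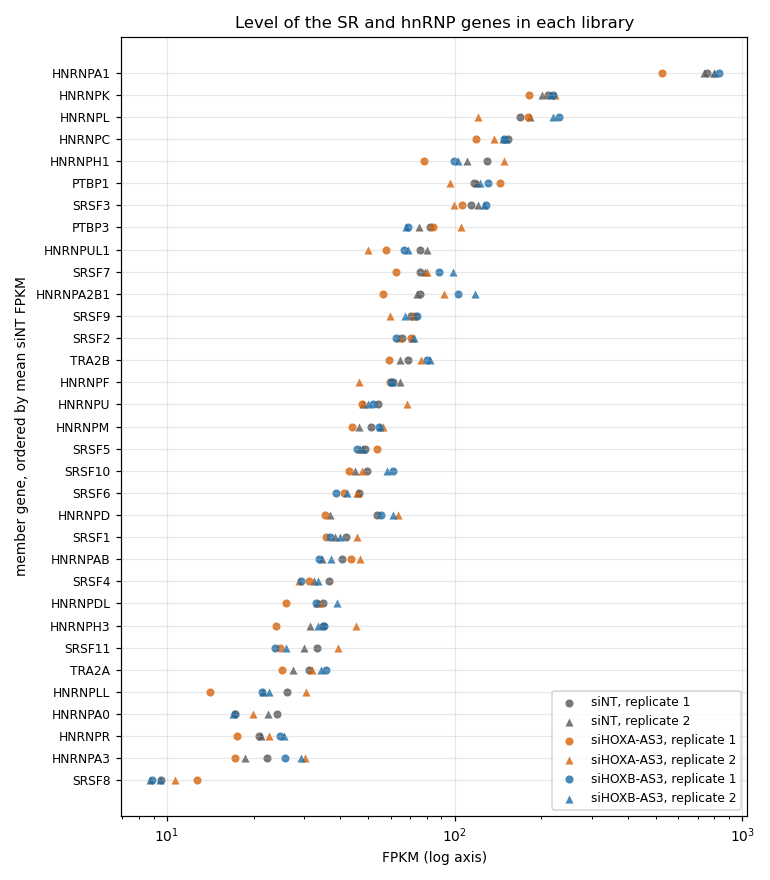
FPKM (log axis) of the 33 members without another coding gene in their row, in each of the 6 libraries, ordered by the siNT mean. Circles are replicate 1 and triangles replicate 2 of siNT, siHOXA-AS3 and siHOXB-AS3, and the levels run from SRSF8 (8.71 to 12.7 FPKM) to HNRNPA1 (526 to 830 FPKM), with the spread of a gene across libraries small against the spread between genes.

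Paralogs kept a stable ratio in some pairs and not in others. TRA2B, an activator that binds GA-rich exonic enhancers, was 2.21 to 2.40 times its paralog TRA2A in FPKM across the 6 libraries. HNRNPA1 was 10.0 and 9.91 times HNRNPA2B1 in siNT, 9.31 and 8.64 times in siHOXA-AS3, and 8.08 and 6.75 times in siHOXB-AS3. This ratio was thus lower in each KD library than in both siNT libraries. So was that of HNRNPH1 to HNRNPH3, at 3.72 and 3.52 in siNT, 3.25 and 3.29 in siHOXA-AS3, and 2.83 and 3.08 in siHOXB-AS3. How often other pairs of genes do so was not computed. PTBP1 was 1.42 and 1.59 times its paralog PTBP3 in siNT, and 1.90 and 1.82 times in siHOXB-AS3. In siHOXA-AS3 the PTBP1 to PTBP3 ratio was 1.71 in replicate 1 and 0.916 in replicate 2, on opposite sides of siNT. The ratio of HNRNPL to HNRNPLL behaved in the same way, at 6.49 and 8.44 in siNT, 12.8 and 3.99 in siHOXA-AS3, and 10.8 and 9.70 in siHOXB-AS3.

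The siHOXA-AS3 libraries differed from each other more than those of the other groups. The members took part in this, with a smaller spread than all genes. The SD over the 33 members of the log2 difference between replicates was 0.44 in siHOXA-AS3, 0.14 in siNT and 0.10 in siHOXB-AS3. Over all genes it was 0.73, 0.42 and 0.37 in the same order. 7 members were at least 1.5-fold apart between the siHOXA-AS3 libraries, beside 45.1% of all genes, and 0 members were in siNT or siHOXB-AS3, beside 7.67% and 6.82% of all genes. HNRNPLL, a regulator of CD45 splicing in lymphocytes, was 2.14-fold higher in replicate 2 than in replicate 1, and HNRNPH1 1.92-fold and HNRNPH3 1.91-fold higher. HNRNPL and PTBP1 went the other way, 1.49-fold and 1.48-fold higher in replicate 1. Across the 33 members, which share these libraries and are not independent replicates, the siHOXA-AS3 difference went with the GC content of the transcripts (Pearson r = -0.61, Spearman rho = -0.54), as it did across 12872 genes (r = -0.74, rho = -0.81). For siNT r was 0.23 over the members and 0.37 over all genes (rho = 0.57), and for siHOXB-AS3 it was -0.11 and -0.14 (rho = -0.23). The members had a median GC content of 43.9%, ranging from 37.2% to 58.1%, below the 49.2% of the genes tested. The part of GC content in the results was not tested beyond the fits with the trend removed that are given below.

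**Figure D2:**
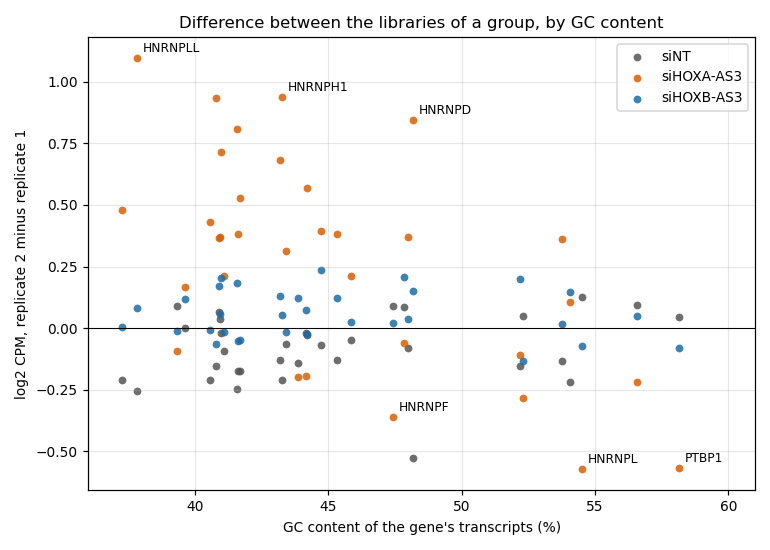
Difference in log2 CPM between replicate 2 and replicate 1 of each group (vertical axis) against the GC content of the gene's transcripts in percent (horizontal axis), 1 point per member and group, for 33 members. The siHOXA-AS3 points fall from left to right (r = -0.61), from HNRNPLL at 1.10 to PTBP1 at -0.57, while the siNT and siHOXB-AS3 points stay nearer 0.

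HOXA-AS3 KD was compared with siNT to ask whether the transcripts of these regulators respond to loss of HOXA-AS3. Of the 33 members, 14 had a positive and 19 a negative log2 fold change, where 51.3% of all genes were positive. The members' values ran from -0.53 to 0.37, with a median of -0.03 beside 0.01 over the 13034 genes tested. No member passed the threshold, and edgeR called 0 genes in all (0%). DESeq2 also called 0 members, with 0.391% of all genes called. At an unadjusted p under 0.05 there was 1 member (3.03%), beside 6.16% of all genes. The SE of a member's log2 fold change was 0.14 to 0.34, so changes of the size of most members' fold changes could not be told from the spread between libraries.

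HNRNPUL1, an hnRNP U-like protein with roles in transcription and DNA repair, had the lowest fold change. It was at 75.8 and 80.4 FPKM in siNT and at 57.5 and 50.0 FPKM in siHOXA-AS3, so the groups did not overlap. Its log2 fold change was -0.53 (SE 0.15, adjusted p = 0.614), and with the GC trend removed from each library it was -0.51 with an adjusted p of 0.0299, in a range of 0.000421 to 1 over the alternatives. HNRNPA0, an intronless hnRNP gene whose protein binds AU-rich mRNAs, was at 24.2 and 22.5 FPKM in siNT and at 17.3 and 19.9 FPKM in siHOXA-AS3 (-0.32, SE 0.18, adjusted p = 0.896). HNRNPC was at 153 and 147 FPKM in siNT and at 119 and 137 FPKM in siHOXA-AS3 (-0.22, SE 0.14, adjusted p = 0.948). All 3 were lower in both siHOXA-AS3 libraries than in both siNT libraries.

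HNRNPF, like HNRNPH1 a G-run binder, was at 61.3 and 64.6 FPKM in siNT and at 59.7 and 46.5 FPKM in siHOXA-AS3 (-0.23, SE 0.17, adjusted p = 0.966). HNRNPL was at 169 and 183 FPKM in siNT and at 180 and 121 FPKM in siHOXA-AS3 (-0.22, SE 0.21, adjusted p = 0.988). In HNRNPL only replicate 2 lay below siNT, and without it the log2 fold change was 0.048. The row shared by HNRNPUL2 and BSCL2 was at -0.33 (SE 0.17, adjusted p = 0.878).

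At the other end stood SRSF8, with 9.57 and 8.71 FPKM in siNT and 12.7 and 10.7 FPKM in siHOXA-AS3 (0.37, SE 0.18, adjusted p = 0.868). HNRNPAB, a CArG-box and RNA binding protein of the A/B group, was at 40.7 and 34.6 FPKM in siNT and at 43.5 and 46.8 FPKM in siHOXA-AS3 (0.27, SE 0.18, adjusted p = 0.948). These were the members higher in both siHOXA-AS3 libraries than in both siNT libraries on the log2 CPM scale. PTBP3 was at 82.1 and 75.5 FPKM in siNT and at 84.2 and 105 FPKM in siHOXA-AS3 (0.34, SE 0.19, adjusted p = 0.911). HNRNPA3 (0.22, SE 0.27, adjusted p = 0.997) and HNRNPU, a chromatin and RNA scaffold protein (0.19, SE 0.20, adjusted p = 0.990), lay above siNT in replicate 2 only, and without it their log2 fold changes were -0.23 and -0.089.

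Counted by libraries on the log2 CPM scale, 2 of 33 members (6.06%) were higher in both siHOXA-AS3 libraries than in both siNT libraries, beside 12.5% of all genes, and 6 (18.2%) were lower, beside 16.1%. The 6 were HNRNPA0, HNRNPUL1, HNRNPC, HNRNPF, SRSF3 and SRSF4. With only siNT and siHOXA-AS3 in the fit, 0 members and 0% of all genes were called. With the GC trend removed, HNRNPUL1 was the 1 member called, beside 5.45% of all genes. Tested alone against siNT, each siHOXA-AS3 library gave calls: without replicate 1, 10 members were called beside 30.6% of all genes, and without replicate 2, 10 members beside 18.1%. The called members went in opposite directions for some genes. HNRNPH1 was at -0.61 in replicate 1 and 0.33 in replicate 2, HNRNPH3 at -0.46 and 0.48, and HNRNPA2B1 at -0.40 and 0.32, as log2 CPM relative to the siNT mean.

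**Figure D3:**
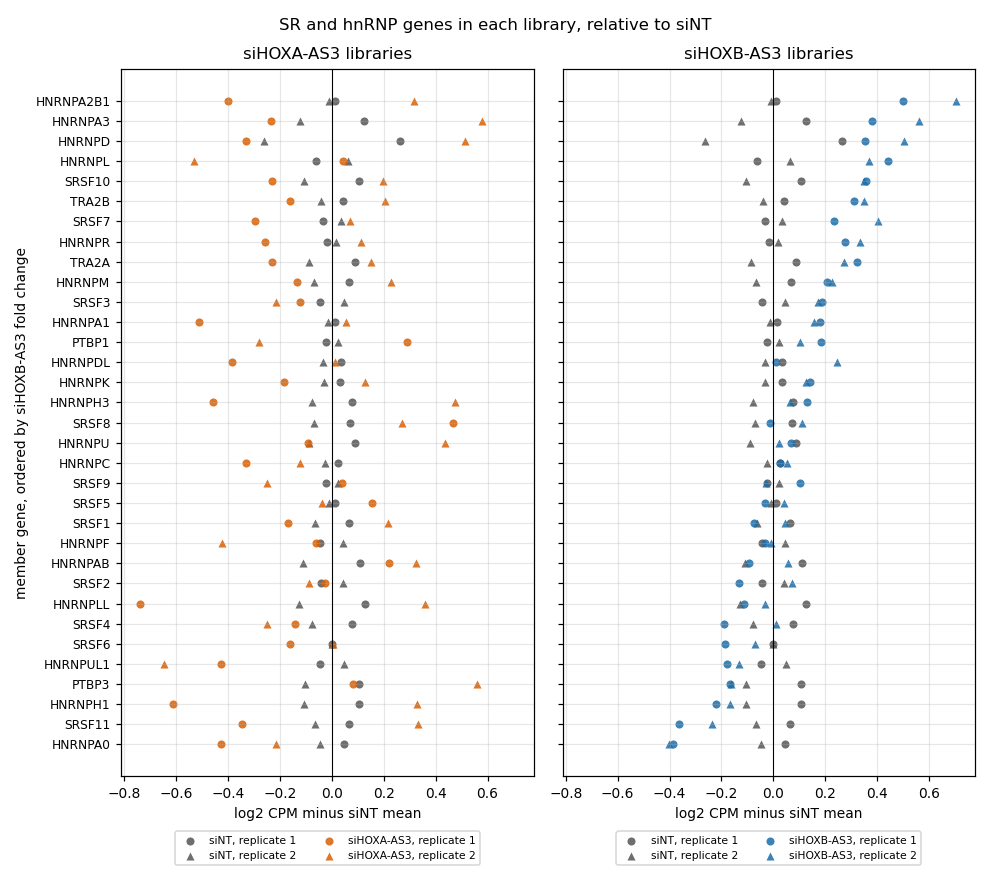
Log2 CPM of each of 33 members relative to its siNT mean, in the siNT and siHOXA-AS3 libraries (left) and in the siNT and siHOXB-AS3 libraries (right), with circles for replicate 1 and triangles for replicate 2. The siHOXA-AS3 replicates often lie on opposite sides of 0, as in HNRNPH1 (-0.61 and 0.33), while the siHOXB-AS3 replicates lie close to each other, as in HNRNPA0 (-0.38 and -0.40).

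HOXB-AS3 KD was compared with siNT to ask the same of HOXB-AS3. The log2 fold changes ran from -0.39 to 0.61, with a median of 0.05 beside -0.01 over all genes. They were positive in 21 members and negative in 12, where 49.3% of all genes were positive. No member was called, beside 0.0614% of the 13034 genes by edgeR. DESeq2 called 0 members, beside 2.66% of all genes. At an unadjusted p under 0.05 there was 1 member, HNRNPA2B1, beside 12.2% of all genes.

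HNRNPA2B1, an A/B type hnRNP that binds UAG-containing RNA and reads N6-methyladenosine, stood at the top. It was at 75.7 and 74.1 FPKM in siNT and at 103 and 118 FPKM in siHOXB-AS3, with no overlap and siNT libraries close together. The siHOXA-AS3 libraries lay on either side of siNT, at 56.5 and 92.2 FPKM. The log2 fold change after HOXB-AS3 KD was 0.61 (SE 0.24, adjusted p = 0.372), a level 52.3% higher that did not pass the threshold. With only siNT and siHOXB-AS3 in the fit its adjusted p was 6.34e-05, in a range of 5.47e-05 to 1 over the alternatives.

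HNRNPA3 was at 22.4 and 18.7 FPKM in siNT and at 25.8 and 29.2 FPKM in siHOXB-AS3 (0.47, SE 0.27, adjusted p = 0.567). HNRNPA1 was at 757 and 734 FPKM in siNT and at 830 and 796 FPKM in siHOXB-AS3, 0.18 and 0.16 above the siNT mean in log2 CPM. In each of these 3 A group genes both siHOXB-AS3 values lay above both siNT values. HNRNPA0 went the other way, at 17.3 and 17.03 FPKM in siHOXB-AS3 against 24.2 and 22.5 in siNT (-0.39, SE 0.18, adjusted p = 0.446). HNRNPA0 was thus below siNT in all 4 KD libraries, as was HNRNPUL1. Both KDs share the siNT libraries, and the share of all genes below siNT in all 4 was not computed. HNRNPAB overlapped siNT, at 33.9 and 37.3 FPKM.

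HNRNPD, also called AUF1, which binds AU-rich elements and speeds mRNA decay, was at 53.8 and 37.0 FPKM in siNT and at 55.5 and 60.97 FPKM in siHOXB-AS3 (0.41, SE 0.31, adjusted p = 0.667). The siNT libraries of HNRNPD were further apart than those of any other member, and the log2 fold change was 0.69 without siNT replicate 1 and 0.17 without siNT replicate 2. HNRNPL was at 169 and 183 FPKM in siNT and at 231 and 219 FPKM in siHOXB-AS3 (0.40, SE 0.21, adjusted p = 0.512). Its paralog HNRNPLL was at 26.1 and 21.7 FPKM in siNT and at 21.4 and 22.6 FPKM in siHOXB-AS3, within the siNT spread on the log2 CPM scale. HNRNPR was at 20.9 and 21.3 FPKM in siNT and at 24.8 and 25.6 FPKM in siHOXB-AS3 (0.31, SE 0.17, adjusted p = 0.555). HNRNPM, HNRNPK and HNRNPC also lay above siNT in log2 CPM in both replicates, by smaller amounts.

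Among SR genes the highest fold change was that of SRSF10, an SR protein that turns into a splicing repressor when it is dephosphorylated. It was at 49.4 and 45.2 FPKM in siNT and at 61.1 and 58.1 FPKM in siHOXB-AS3 (0.35, SE 0.19, adjusted p = 0.530). SRSF7, which has a zinc knuckle beside its RNA recognition motif, was at 75.9 and 78.9 FPKM in siNT and at 88.3 and 98.8 FPKM in siHOXB-AS3 (0.32, SE 0.18, adjusted p = 0.547). TRA2B was at 68.9 and 64.6 FPKM in siNT and at 80.3 and 82.1 FPKM in siHOXB-AS3 (0.33, SE 0.17, adjusted p = 0.507), and TRA2A, at 31.2 and 27.4 FPKM in siNT, was at 35.8 and 34.2 FPKM. In these 4 genes each siHOXB-AS3 library was above both siNT libraries.

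SRSF11 had the lowest fold change of the SR genes, at 33.1 and 30.1 FPKM in siNT and 23.8 and 25.9 FPKM in siHOXB-AS3 (-0.30, SE 0.25, adjusted p = 0.694). SRSF6 was also lower in both siHOXB-AS3 libraries, at 38.9 and 42.2 FPKM against 46.4 and 46.1 FPKM. HNRNPH1 was at 129 and 111 FPKM in siNT and at 99.5 and 103 FPKM in siHOXB-AS3 (-0.20, SE 0.29, adjusted p = 0.852). PTBP3 was at 68.7 and 67.6 FPKM (-0.17, SE 0.19, adjusted p = 0.799) and HNRNPUL1 at 66.8 and 69.1 FPKM (-0.16, SE 0.15, adjusted p = 0.750), both with each siHOXB-AS3 library below both siNT libraries. PTBP1 was 0.18 and 0.10 above its siNT mean in log2 CPM.

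On the log2 CPM scale, both siHOXB-AS3 values lay above both siNT values in 15 of 33 members (45.5%), beside 30.9% of all genes. In 6 members (18.2%) they lay below, also beside 30.9% of all genes. When the spread was taken from siNT and siHOXB-AS3 alone, which leaves out the disparate siHOXA-AS3 libraries, 10 members (30.3%) were called beside 23% of all genes, 8 of them rising (HNRNPA2B1, HNRNPA3, HNRNPL, HNRNPR, HNRNPD, SRSF10, SRSF7 and TRA2B) and 2 falling (HNRNPA0 and SRSF11). With the GC trend removed and all libraries in the fit, 4 members were called, HNRNPA2B1, HNRNPA3 and HNRNPL higher and HNRNPA0 lower, beside 14.9% of all genes. The share of members called was thus near that of all genes in both fits. The row of HNRNPH2 and RPL36A was at 1698 and 1821 FPKM in siNT and at 1953 and 2092 FPKM in siHOXB-AS3 (log2 fold change 0.25, SE 0.13, adjusted p = 0.537), and its mean transcript length of 901 to 911 nt over the libraries is that of a short gene.

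**Figure D4:**
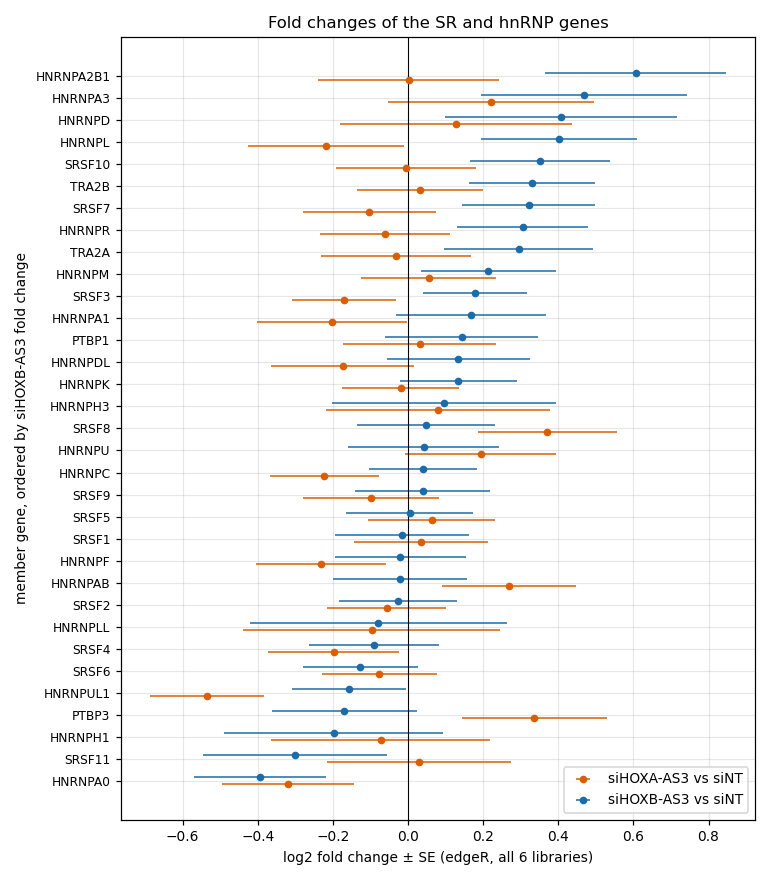
Log2 fold change (points) with its SE (bars) of 33 members after HOXA-AS3 KD and after HOXB-AS3 KD, each against the same siNT libraries, from edgeR with all 6 libraries. The siHOXB-AS3 values run from HNRNPA0 (-0.39) to HNRNPA2B1 (0.61) and the siHOXA-AS3 values from HNRNPUL1 (-0.53) to SRSF8 (0.37), and no adjusted p was under 0.05.

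The KDs were also compared with each other, which tests whether a member responded to them differently. The median log2 difference of siHOXB-AS3 against siHOXA-AS3 was 0.15 over the members and -0.01 over all genes. By sign, 23 of 33 members were higher after HOXB-AS3 KD, beside 48.9% of all genes. No member was called, beside 1.57% of all genes by edgeR and, by DESeq2, 6.08%. At an unadjusted p under 0.05 there were 6 members (18.2%), beside 18.4% of all genes.

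The members with the highest differences were HNRNPL (0.62, SE 0.21, adjusted p = 0.183), HNRNPA2B1 (0.61, SE 0.24, adjusted p = 0.245) and SRSF7 (0.42, SE 0.18, adjusted p = 0.267). HNRNPUL1 (0.38, SE 0.15, adjusted p = 0.247) and HNRNPA1 (0.37, SE 0.20, adjusted p = 0.385) came next. The row of HNRNPUL2 and BSCL2 was at 0.46 (SE 0.17, adjusted p = 0.226). In all of these both siHOXB-AS3 values lay above both siHOXA-AS3 values on the log2 CPM scale. In FPKM HNRNPA1 overlapped, at 830 and 796 in siHOXB-AS3 against 526 and 797 in siHOXA-AS3. Their size rested on which siHOXA-AS3 library was used: without replicate 1 and without replicate 2, respectively, HNRNPL was at 0.94 and 0.35, HNRNPA2B1 at 0.29 and 1.00, SRSF7 at 0.25 and 0.61 and HNRNPA1 at 0.11 and 0.67. At the low end, PTBP3 (-0.51, SE 0.19, adjusted p = 0.228), SRSF8 (-0.32, SE 0.18, adjusted p = 0.407) and HNRNPAB (-0.29, SE 0.18, adjusted p = 0.444) did not overlap between the KDs, and PTBP3 was at -0.73 and -0.26 with those libraries left out. SRSF11 (-0.33, SE 0.25, adjusted p = 0.537) and HNRNPU (-0.15, SE 0.20, adjusted p = 0.749) did overlap, and without siHOXA-AS3 replicate 2 they were at 0.039 and 0.13.

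By libraries on the log2 CPM scale, 13 members (39.4%) had both siHOXB-AS3 values above both siHOXA-AS3 values, beside 22.8% of all genes. In 3 members (9.09%) they lay below, beside 22.5%. With the GC trend removed 11 members (33.3%) were called, beside 28.1% of all genes. With only these groups in the fit 0 members were called, beside 0.0307% of all genes.

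RSEM's mean transcript length weights the transcripts of a gene by their estimated share, so it moves when the mix of isoforms moves, and it is a readout other than the gene's total. 3 of the 33 members had a single transcript in the annotation, and 29 varied in length and were tested on the log2 scale with limma. Over the libraries 21 of 33 varied by less than 1% and 3 by more than 5%. SRSF10, with 9 transcripts, had mean lengths of 5362 and 5037 nt in siNT, 4857 and 5821 nt in siHOXA-AS3 and 5006 and 5200 nt in siHOXB-AS3. PTBP3 had 5679 and 5314 nt, 5411 and 5975 nt, and 5437 and 5522 nt in the same order. Both genes were longest in replicate 2 of siHOXA-AS3, the group whose libraries also differed with GC content.

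SRSF2 was at 2190 and 2137 nt in siNT, 2066 and 2161 nt in siHOXA-AS3 and 2102 and 2092 nt in siHOXB-AS3. HNRNPA1 was at 1527 and 1531 nt in siNT, 1515 and 1482 nt in siHOXA-AS3 and 1512 and 1536 nt in siHOXB-AS3. The row of HNRNPUL2 and BSCL2 had the widest range, 2396 to 3036 nt, where the mix of both genes also counts. SRSF6 was added after its values were seen, since its lengths set siHOXB-AS3 apart: 3920 and 3919 nt in siNT, 3913 and 3922 nt in siHOXA-AS3, and 3975 and 3952 nt in siHOXB-AS3. The log2 difference of SRSF6 in siHOXB-AS3 against siNT was 0.016 (SE 0.0034, limma adjusted p = 0.606). SRSF6 was not alone in this. HNRNPAB (1806 and 1808 nt in siHOXB-AS3, 1793 to 1798 nt in the other groups, limma adjusted p = 0.517 against siNT) was also set apart. So was HNRNPK (3013 nt in both siHOXB-AS3 libraries, 2999 to 3005 nt in the other groups, limma adjusted p = 0.585). HNRNPR and SRSF3 were longer too, and HNRNPF and HNRNPLL were shorter, in both siHOXB-AS3 libraries than in the other groups. HNRNPA2B1 was also shorter, at 3668 nt against 3669 nt. The share of all genes set apart from both other groups in this way was not computed, so these members are a description only.

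No member passed the threshold on length in any comparison. Over all 7144 genes tested limma called 0% after HOXA-AS3 KD, 0.014% after HOXB-AS3 KD and 0.028% between the KDs. After HOXB-AS3 KD 7 of 29 members (24.1%) had both lengths above both siNT lengths, beside 14.3% of all genes, and 6 (20.7%) had them below, beside 20.2%. Names and shares of isoforms were not analysed here.

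**Figure D5:**
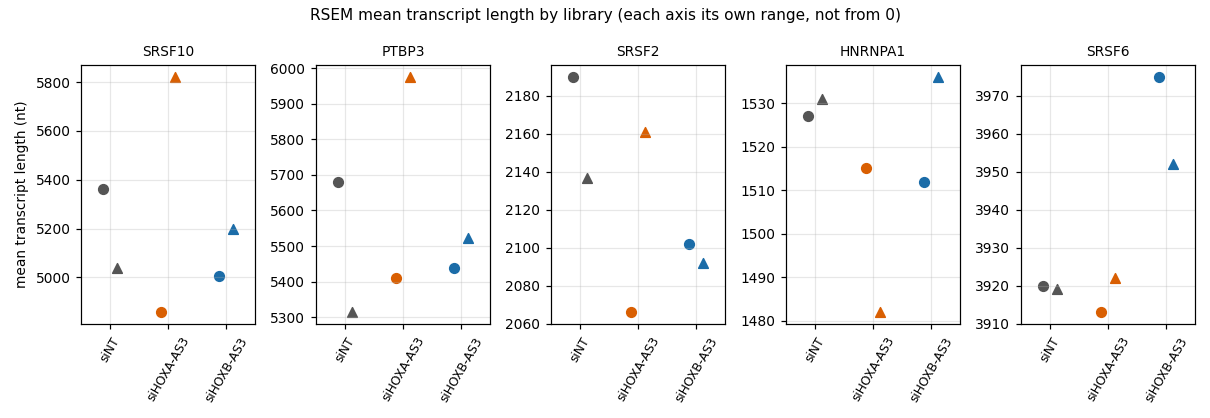
RSEM mean transcript length in nt of SRSF10, PTBP3, SRSF2, HNRNPA1 and SRSF6 in each library (circles replicate 1, triangles replicate 2), each panel on its own axis that does not start at 0. SRSF10 and PTBP3 are longest in siHOXA-AS3 replicate 2 (5821 and 5975 nt), and SRSF6 is longer in both siHOXB-AS3 libraries (3975 and 3952 nt) than in the other 4 (3913 to 3922 nt).

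Genes that work with these regulators were read from other lists. SR protein kinases, which phosphorylate SR proteins, and nuclear import factors, not all of them specific to SR proteins, numbered 11 of 11 tested. In either KD 0 were called. Their median was -0.03 after HOXA-AS3 KD and 0.29 after HOXB-AS3 KD, where 10 of 11 were positive beside 49.3% of all genes, and 9 had both siHOXB-AS3 values above both siNT values beside 30.9% of all genes. SRPK1, a cytoplasmic SR protein kinase, was lowest after HOXA-AS3 KD (-0.34, SE 0.19, adjusted p = 0.910) and PRPF4B, a nuclear kinase, highest (0.02, SE 0.27, adjusted p = 0.999). After HOXB-AS3 KD the import receptor TNPO3 was lowest (-0.08, SE 0.16, adjusted p = 0.896) and its relative TNPO2 highest (0.58, SE 0.25, adjusted p = 0.414).

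Core spliceosome genes, 40 of 40 tested, had 0 calls in either KD, with a median of -0.12 after HOXA-AS3 KD (10 of 40 positive, beside 51.3% of all genes) and 0.14 after HOXB-AS3 KD (32 of 40 positive, beside 49.3%). With siNT and siHOXB-AS3 alone in the fit, 10 of them rose and 0 fell, in the setting where 23% of all genes were called. The tri-snRNP protein PRPF3 (-0.59, SE 0.18, adjusted p = 0.641) and PRPF31 (0.20, SE 0.21, adjusted p = 0.990) were at the ends after HOXA-AS3 KD. The U1 protein SNRPA (-0.19, SE 0.19, adjusted p = 0.770) and the Sm protein SNRPE (0.50, SE 0.33, adjusted p = 0.606) were at the ends after HOXB-AS3 KD.

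Of 27 other splicing regulators, 26 were tested and 0 called, with medians of -0.02 and 0.04 after HOXA-AS3 and HOXB-AS3 KD. The speckle protein SRRM1 (-0.41, SE 0.15, adjusted p = 0.714) and SFPQ (0.25, SE 0.22, adjusted p = 0.978) were at the ends after HOXA-AS3 KD, and SRRM2 (-0.27, SE 0.19, adjusted p = 0.645) and MBNL2, a muscleblind protein (0.57, SE 0.24, adjusted p = 0.416), after HOXB-AS3 KD. Of 13 further hnRNP and SR family genes 10 were tested and 0 called, with medians of -0.09 and 0.00. PCBP2 (-0.25, SE 0.17, adjusted p = 0.951) and PCBP4 (0.50, SE 0.44, adjusted p = 0.978) were at the ends after HOXA-AS3 KD, and PCBP4 was lowest after HOXB-AS3 KD (-0.39, SE 0.45, adjusted p = 0.800).

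The nonsense-mediated decay genes, which act on poison-exon transcripts, were tested in 14 of 14 and called in 0, with medians of -0.07 after HOXA-AS3 KD and 0.04 after HOXB-AS3 KD. SMG9 (-0.39, SE 0.29, adjusted p = 0.967) and SMG1 (0.22, SE 0.19, adjusted p = 0.978) were at the ends after HOXA-AS3 KD. UPF3B (-0.32, SE 0.23, adjusted p = 0.653) and EIF4A3, a subunit of the exon junction complex (0.39, SE 0.17, adjusted p = 0.450), were at the ends after HOXB-AS3 KD.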

How the data were processed

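The labels name hg19 and RSEM, and the study's methods name SENSE mRNA-Seq libraries, RefSeq genes and DESeq2. Which aligner, RSEM version and strand setting were used is not given in the sources used here, and the methods give 25 nM siRNA where the labels give 10 nM. The authors deposited expected counts per gene, which are RSEM's estimated numbers of fragments without normalization. They also deposited TPM, which was not analysed here, FPKM, which the authors scaled by effective length and library size, and RSEM's mean transcript length, which was used as deposited.

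After rounding, expected counts were tested with edgeR 4.0.16 (R 4.3.3): filterByExpr (minimum count 10), TMM, a robust quasi-likelihood fit of all 6 libraries and Benjamini-Hochberg adjustment over 13034 genes at 0.05. Mean transcript length was tested with limma 3.58.1 on the log2 scale over 7144 genes. GENCODE release 29 transcripts gave the 3′ UTRs and the GC content, the latter for 98.8% of tested genes. The labels' build differs from that annotation, so no coordinates are given. Of 27434 rows, 627 join several genes, and those with no symbol took 0.0474% of counts or less. No pair of replicate libraries was identical (chi-square per degree of freedom of at least 6.90).

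The members and lists were chosen with earlier results of these data known. The genes named with statistics were the 5 highest and 5 lowest members by log2 fold change in each comparison, with and without the 2 shared rows, any member called also with only the groups compared, and the highest and lowest gene of each other list. 1 gene of these lists is not reported here. On simulated counts of 13034 genes with 200 changed 4-fold, edgeR recovered 89% of the changed genes for HOXA-AS3 KD and 93% for HOXB-AS3 KD. False calls numbered 13 and 10. The simulation gave all groups the same spread, with no GC trend, and changes far larger than those of the members. It therefore does not show how well the test finds changes of the members' size, or changes in libraries as disparate as those of siHOXA-AS3. Alternatives were DESeq2 1.42.0, RLE size factors, library totals, no filter, limma-trend on log2(FPKM + 0.1), a replicate block, only the groups compared, a loess GC trend taken out of each library, and each library left out.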

Additional observations from a re-analysis of the deposited data

How the results depend on the processing

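No member was called in any comparison under DESeq2, RLE size factors, library totals, no filter, limma-trend on log2(FPKM + 0.1) or with the replicate number as a block. With only the groups compared 10 members were called after HOXB-AS3 KD, where the siHOXA-AS3 libraries no longer add to the spread. With the GC trend removed the counts were 1 after HOXA-AS3 KD, 4 after HOXB-AS3 KD and 11 between the KDs, and the cause was not tested. With each library left out in turn they ranged from 0 to 10, 0 to 10 and 0 to 19, and were above 0 only without siHOXA-AS3 replicate 1 or 2. The members' median log2 fold change then went from -0.18 (siHOXA-AS3 replicate 2 left out) to 0.13 (replicate 1 left out) after HOXA-AS3 KD, from 0.025 to 0.12 after HOXB-AS3 KD and from 0.061 to 0.31 between the KDs. A library left alone in its group is taken to vary as the other groups do. Of 35 named fold changes, 5 changed sign, each without siHOXA-AS3 replicate 2. After HOXA-AS3 KD these ranged, over the libraries left out, from -0.53 to 0.048 for HNRNPL, from -0.089 to 0.43 for HNRNPU and from -0.23 to 0.57 for HNRNPA3. Between the KDs they ranged from -0.63 to 0.039 for SRSF11 and from -0.39 to 0.13 for HNRNPU. Tests of mean transcript length called 0 members in each alternative.

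The deviations of same-numbered libraries had correlations of -0.35 (siHOXA-AS3 and siNT), -0.14 (siHOXB-AS3 and siNT) and 0.15 (between the KDs). Over all genes, the difference between replicates rose with GC content in siNT (r = 0.37) and fell with it in siHOXA-AS3 (r = -0.74). Such correlations therefore cannot show whether same-numbered libraries were prepared as pairs. With the replicate block 0 members were called in each comparison, with medians of -0.04, 0.05 and 0.16, and the calls over all genes went from 0, 8 and 204 to 0, 0 and 10. With the siNT numbers crossed, a pairing chosen after seeing the data, they were 14, 225 and 758, with 0 members in each. Over all genes DESeq2 called 51, 347 and 792, and no filter gave 24, 265 and 706. With 2 libraries per group and SEs of 0.14 to 0.34, small changes of members were not detectable.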
